A study of Drosophila melanogaster with 20 samples.

Results

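Neuronal knockdown of ATM with the ElavC155 driver was examined in RNA from adult Drosophila melanogaster heads, as 2 samples of ElavC155-ATMi flies against 2 samples of ElavC155-GAL4 flies. These 4 samples were taken by their titles out of the 20 of the series, and all 15473 transcripts on the array were used. ElavC155-ATMi flies carried the ElavC155-GAL4 driver on the X chromosome and UAS-RNAiATM on the third, each over a wild-type chromosome. ElavC155-GAL4 flies carried the driver alone, so lowered ATM and presence of the transgene go together here. Both were in the w1118 background, were reared at 25°C, collected 0 to 3 days after eclosion, and then held at 25°C for 3 days. Their age is stated separately as 4 to 6 days. The labels do not give the sex of the flies or the number of heads in a sample.

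ATM is a protein kinase that signals DNA double-strand breaks to repair, cell cycle and cell death pathways; flies encode it in the gene tefu. In the GAL4/UAS system the yeast activator GAL4, expressed in chosen cells, switches on a transgene placed behind UAS sites, here one that yields double-stranded RNA against ATM. The C155 line is an insertion of GAL4 at the elav locus, whose RNA-binding protein is a standard marker of neurons. The knockdown is thus directed to neurons, while the RNA came from whole heads with neurons, glia, fat body, muscle and cuticle. In such bulk samples, fewer cells of a type and less RNA per cell cannot be told apart.

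Levels were RMA values on a log2 scale, in which a step of 1 is a doubling of signal. The other genotypes of the series, which serve here only for comparison, were Elav-ATMi against Elav-GAL4 (a neuronal driver on the second chromosome, 4 samples each), Repo-ATMi against Repo-GAL4 (a glial driver, 2 each) and ATM8 homozygotes against heterozygotes (a temperature-sensitive allele in a p e background, reared at 18°C and held at 25°C, 2 each). The median level lay between 10.84 and 10.93 on the 12 ElavC155 and Elav arrays and between 10.45 and 10.63 on the 8 others. The SD of levels across transcripts was 2.95 to 2.99 on the 12 and 2.78 to 2.80 on the 8. Levels are therefore set side by side below mainly among the neuronal genotypes. Effects are compared across all, though their scale may differ between these sets of arrays. The 2 ElavC155-ATMi arrays correlated at 0.995 across transcripts and the 2 ElavC155-GAL4 arrays at 0.993.

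The array rows carry FlyBase transcript numbers without gene names. A RefSeq gene table tied 17 rows to exactly 1 gene and 27 rows to several, so most transcripts that moved can be described by level and direction but not by function. No row could be tied to tefu, to markers of neurons, glia or other head cells, or to antimicrobial peptide genes. The extent of the knockdown and the make-up of the tissue were therefore not checked here.

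ElavC155-ATMi heads had higher levels of 51 transcripts and lower levels of 27 than ElavC155-GAL4 heads. These 78 transcripts, 0.504% of the 15473 tested (0.330% higher and 0.174% lower), passed limma's test at an adjusted p under 0.05, with p-values adjusted by the Benjamini-Hochberg method over all transcripts. A transcript is said below to have changed, risen or fallen only where it passed this test. Unless another fit is named, SEs, intervals and p-values come from a fit of all 20 arrays. Their spread is thus pooled over the 8 genotypes and is not that of the compared arrays alone. The 51 rises had a median log2 fold change of 1.37 and ran from 0.62 to 8.93. The 27 falls had a median size of 1.56 and ran from 0.69 to 5.73. A doubling or more was measured for 39 rises and a halving or more for 25 falls, while 8 rises and 4 falls reached 4-fold.

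Across all transcripts the median log2 fold change was 0.01 and 51.3% were positive. RMA levels are normalized between arrays, which sets this centre near 0. An unadjusted p under 0.05 was found for 978 transcripts (6.32%). All 78 changed transcripts had both ElavC155-ATMi arrays on one side of both ElavC155-GAL4 arrays, a separation also seen in 40.0% of all transcripts. Within the 78, the gap between the 2 arrays of a genotype had a median of 0.20 in ElavC155-ATMi and 0.26 in ElavC155-GAL4, against 0.13 and 0.17 over all transcripts. A size of at least 4-fold was measured without passing the test for 2 transcripts.

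**Figure D1:**
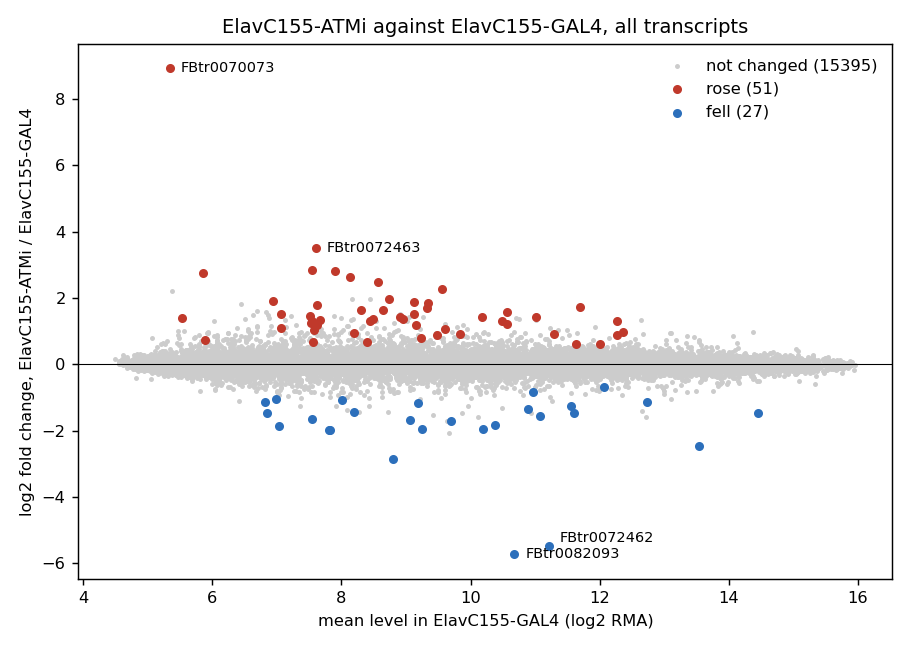
Log2 fold change of ElavC155-ATMi over ElavC155-GAL4 (y axis) against the mean level in ElavC155-GAL4 heads (x axis, log2 RMA), with 1 dot per transcript, the 51 rises in red and the 27 falls in blue. FBtr0070073 lies far above the other rises, and FBtr0082093 and FBtr0072462 lie far below the other falls.

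The rises came mostly from low to middle levels and the falls from a wider range. The 51 transcripts that rose had a median level of 10.39 in ElavC155-ATMi heads and 8.65 in ElavC155-GAL4 heads, where the median over all transcripts was 10.85. Of these 51, 17 lay under the 25th percentile of levels in ElavC155-GAL4 heads (7.69) and 0 lay over the 75th. The 27 transcripts that fell had a median level of 7.39 in ElavC155-ATMi heads and 9.69 in ElavC155-GAL4 heads. Of these, 14 lay under that same level in ElavC155-ATMi heads and 5 in ElavC155-GAL4 heads, so falls often ended at dim levels. RMA levels carry no detection flag, and a fold change that begins or ends near the lowest levels of an array (4.41 to 4.50 on these 4 arrays) has no measured floor.

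FBtr0070073 rose most. Its level was 14.20 and 14.33 on the ElavC155-ATMi arrays, against 5.58 and 5.10 on the ElavC155-GAL4 arrays. The transcript was thus near the bottom of the scale in driver-only heads and near the top in knockdown heads. The log2 fold change was 8.93 ± 0.64 (SE, n = 2 each, limma adjusted p = 9.4e-07), with a 95% interval from 7.58 to 10.28.

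The same transcript was high in every genotype that carried UAS-RNAiATM and low in every one that did not. It was at 13.92, 13.58, 13.63 and 13.22 in Elav-ATMi heads against 7.24, 5.69, 5.37 and 5.02 in Elav-GAL4 heads. In Repo-ATMi heads it was at 14.43 and 14.58, against 8.23 and 5.93 in Repo-GAL4 heads. ATM8 flies, which have no such transgene, had 5.43 and 5.46 in homozygotes and 6.01 and 5.17 in heterozygotes. The lowest of the 8 knockdown arrays thus exceeded the highest of the 12 other arrays. The ElavC155 effect minus the Elav effect was 1.17 (95% interval -0.48 to 2.82, limma adjusted p = 1), and the ElavC155 effect minus the Repo effect was 1.5 (-0.41 to 3.41, adjusted p = 0.6).

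FBtr0072463 showed the next largest rise. It had levels of 10.95 and 11.32 in ElavC155-ATMi heads and 7.36 and 7.87 in ElavC155-GAL4 heads, a log2 fold change of 3.52 ± 0.25 (SE, n = 2 each, limma adjusted p = 9.4e-07). Its rise was smaller in Elav-ATMi heads, at 9.58, 8.69, 8.90 and 8.92 against 7.94, 7.54, 7.88 and 7.49 in Elav-GAL4 heads (log2 fold change 1.31 ± 0.18, SE, limma adjusted p = 0.00042). The knockdown heads of the ElavC155 line thus stood above those of the Elav line, while levels in the driver-only heads overlapped. The difference of the effects was 2.22 ± 0.31 (limma adjusted p = 0.0064). That call was lost with the 12 ElavC155 and Elav arrays alone (2.22, limma adjusted p = 0.060) and without ElavC155-ATMi replicate 2 (2.03, adjusted p = 0.059).

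With the glial driver FBtr0072463 did not pass, at 9.14 and 9.30 in Repo-ATMi heads against 8.62 and 8.65 in Repo-GAL4 heads. Its log2 fold change there was 0.59 ± 0.25 (SE, limma adjusted p = 0.23), and the ElavC155 effect exceeded it by 2.93 ± 0.35 (adjusted p = 0.00028). In ATM8 flies it was at 7.61 and 7.38 in homozygotes and 7.69 and 7.84 in heterozygotes. Those levels overlap those of the neuronal driver-only heads.

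FBtr0082093 showed the largest fall. Its levels were 5.06 and 4.85 in ElavC155-ATMi heads, against 10.80 and 10.56 in ElavC155-GAL4 heads. The log2 fold change was -5.73 ± 0.26 (SE, n = 2 each, limma adjusted p = 5.3e-09). The knockdown heads were thus close to the lowest level on these arrays.

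With the Elav driver FBtr0082093 stayed high in knockdown heads, at 12.74, 12.56, 12.35 and 12.28 in Elav-ATMi against 12.94, 13.45, 12.68 and 12.97 in Elav-GAL4 heads. The ElavC155 effect was more negative than the Elav effect by 5.20 ± 0.32 on the log2 scale and this difference passed (limma adjusted p = 4.9e-07). Repo-ATMi heads had 11.79 and 12.08 and Repo-GAL4 heads 12.40 and 12.32. ElavC155-GAL4 heads, at a mean of 10.68, were below every array of the Elav, Repo and heterozygous ATM8 genotypes. ATM8 homozygotes were the other genotype with low levels, at 6.79 and 5.92 against 12.04 and 12.34 in heterozygotes. Low and high levels of this transcript thus did not follow presence of UAS-RNAiATM. The part that the lower level of the ElavC155-GAL4 line plays in this result was not tested.

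FBtr0072462, whose number directly precedes that of FBtr0072463, showed the next largest fall. It was at 5.69 and 5.80 in ElavC155-ATMi heads, against 11.15 and 11.26 in ElavC155-GAL4 heads. The log2 fold change was -5.46 ± 0.37 (SE, n = 2 each, limma adjusted p = 8e-07). The groups stood apart by far more than the arrays within either genotype.

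FBtr0072462 also fell with the other neuronal driver. Elav-ATMi heads had 5.45, 4.84, 5.44 and 6.27, against 10.90, 10.37, 10.98 and 11.35 in Elav-GAL4 heads. The log2 fold change there was -5.40 ± 0.26 (SE, limma adjusted p = 3.4e-09), and the ElavC155 effect minus the Elav effect was -0.06 (95% interval -1.01 to 0.89). With the glial driver it was at 10.75 and 10.30 in Repo-ATMi heads and 11.67 and 11.61 in Repo-GAL4 heads, a log2 fold change of -1.12 ± 0.37 (SE) that did not pass (limma adjusted p = 0.11). The neuronal and glial effects differed by -4.35 ± 0.52 (SE, ElavC155 minus Repo, adjusted p = 0.00028). ATM8 homozygotes were also low, at 7.38 and 6.60 against 11.33 and 11.09 in heterozygotes, so a low level was not limited to genotypes with the RNA interference transgene.

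**Figure D2:**
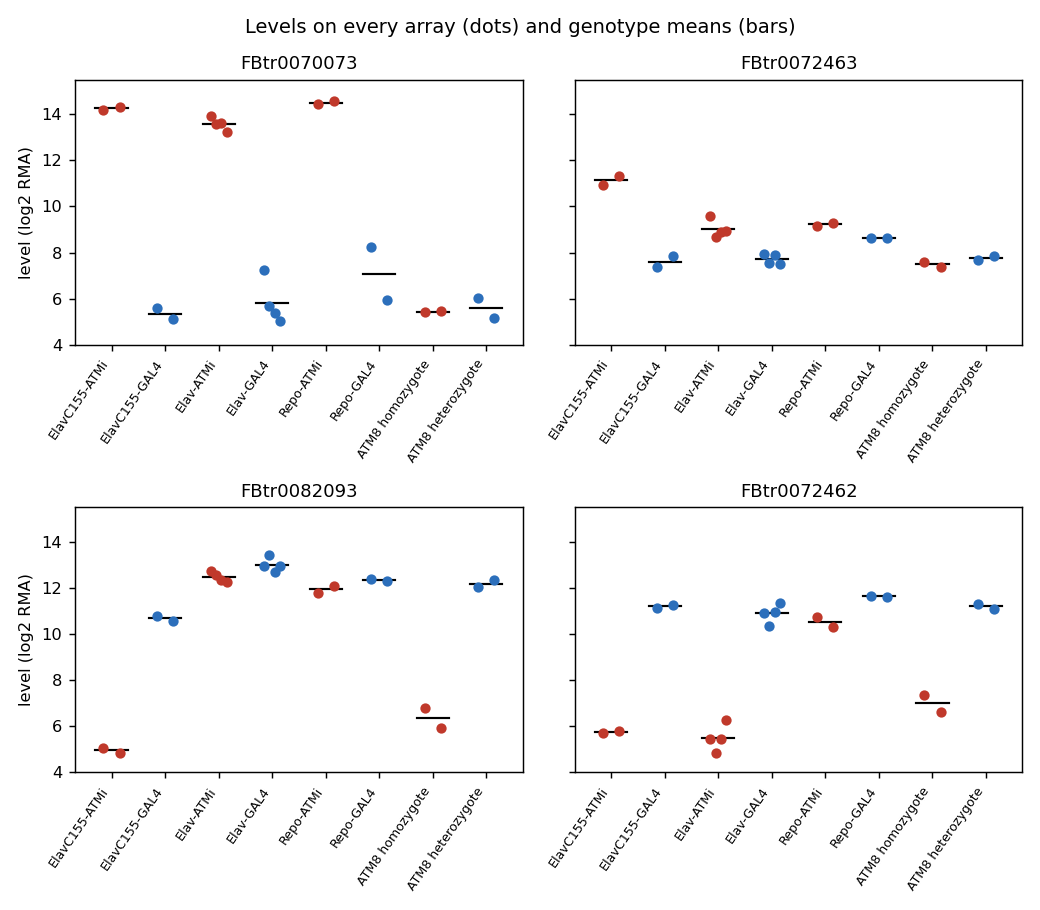
Levels (y axis, log2 RMA) of the 2 transcripts that rose most and the 2 that fell most in ElavC155-ATMi heads, on every array of the 8 genotypes (x axis), with dots for arrays and bars for means. Red marks knockdown or homozygous flies and blue their controls. FBtr0070073 is high in all 8 knockdown samples, and FBtr0082093 is low in ElavC155-ATMi heads and in ATM8 homozygotes.

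The 8 next largest rises had log2 fold changes from 1.92 to 2.85, and their levels reached 8.62 or more in ElavC155-ATMi heads. Of the 10 largest rises together, 6 also rose with the Elav driver, 4 with the Repo driver and 0 in ATM8 homozygotes. Among all transcripts 1.01%, 2.91% and 0.950% rose in these comparisons. Their median log2 fold change was 2.71 with ElavC155, against 1.80 with Elav and 1.10 with Repo. The 10 largest falls included 4 that also fell with Elav, 0 with Repo and 3 in ATM8 homozygotes, where 0.608%, 1.34% and 0.640% of all transcripts fell. The median of these 10 falls was -0.72 with Elav and -0.58 with Repo, beside a median size of 1.98 with ElavC155. Passing with the other neuronal driver was thus not general even among the largest changes.

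The rises of ElavC155-ATMi heads were often found again under both other drivers, whose arrays are all different ones. The same fit gave each transcript a spread shared by all comparisons, however, so passing in different comparisons is not independent. Of the 51 rises, 24 also rose with the Elav driver, where 1.01% of all transcripts rose, and 23 with the Repo driver, where 2.91% did. The 24 make up 47.1% of the ElavC155 rises and 15.4% of the 156 Elav rises. The 23 make up 45.1% of the ElavC155 rises and 5.10% of the 451 Repo rises. Whether or not they passed, 47 of the 51 had a positive log2 fold change with Elav and 47 with Repo, where 46.9% and 47.9% of all transcripts did. The median log2 fold change of the 51 was 0.61 with Elav and 0.70 with Repo, beside -0.01 and -0.02 for all transcripts. Without ElavC155-ATMi replicate 1, ElavC155-ATMi replicate 2, ElavC155-GAL4 replicate 1 or ElavC155-GAL4 replicate 2, the rises shared with Elav numbered 14, 8, 18 and 11, and those shared with Repo 13, 7, 12 and 12.

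Part of the falls also recurred under the other drivers. Of the 27 falls, 12 also fell with Elav (44.4% of the 27 and 12.8% of the 94 Elav falls, in a comparison where 0.608% of transcripts fell). With Repo, 3 fell (11.1% of the 27 and 1.45% of the 207 Repo falls, where 1.34% of transcripts fell) and 3 others rose. The median log2 fold change of the 27 was -0.55 with Elav and -0.42 with Repo, beside -1.56 with ElavC155. Repo and Elav counts rest on 2 and 4 samples a genotype, and their difference was not tested. Without each ElavC155 array in turn, 7 or 8 falls were shared with Elav.

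ATM8 homozygotes shared 2 of the rises and 5 of the falls. The 2 make up 3.92% of the 51 rises and 1.36% of the 147 that rose in homozygotes, where 0.950% of transcripts rose, and the 51 had a median log2 fold change of -0.04. The 5 make up 18.5% of the 27 falls and 5.05% of the 99 that fell in homozygotes, where 0.640% of transcripts fell, and FBtr0082093 and FBtr0072462 were 2 of the 5. The median of the 27 falls was 0.01 in homozygotes.

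Sorted by what they did under the other drivers, the rises formed 4 groups. In the first, 17 transcripts rose with all 3 drivers, FBtr0070073 among them, with medians of 1.43 with ElavC155, 1.76 with Elav and 1.73 with Repo. A further 7, with FBtr0072463 among them, rose with both neuronal drivers without passing with Repo, at medians of 1.71, 0.87 and 0.44 for ElavC155, Elav and Repo. Another 6 rose with ElavC155 and Repo without passing with Elav, at 1.37, 0.20 and 1.02 for ElavC155, Elav and Repo. The remaining 21 passed in the same direction with neither, at 1.34, 0.30 and 0.38, and 1 of them fell with Repo.

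Among the falls, 3 fell with all 3 drivers, with medians of -1.33 with ElavC155, -0.82 with Elav and -1.27 with Repo. A further 9, FBtr0072462 among them, fell with both neuronal drivers without passing with Repo, at -1.70, -1.07 and -0.66 for ElavC155, Elav and Repo. The other 15, which include FBtr0082093, passed in the same direction with neither driver, at -1.56, -0.32 and -0.11. Of these 15, 3 rose with Repo and 3 fell in ATM8 homozygotes.

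**Figure D3:**
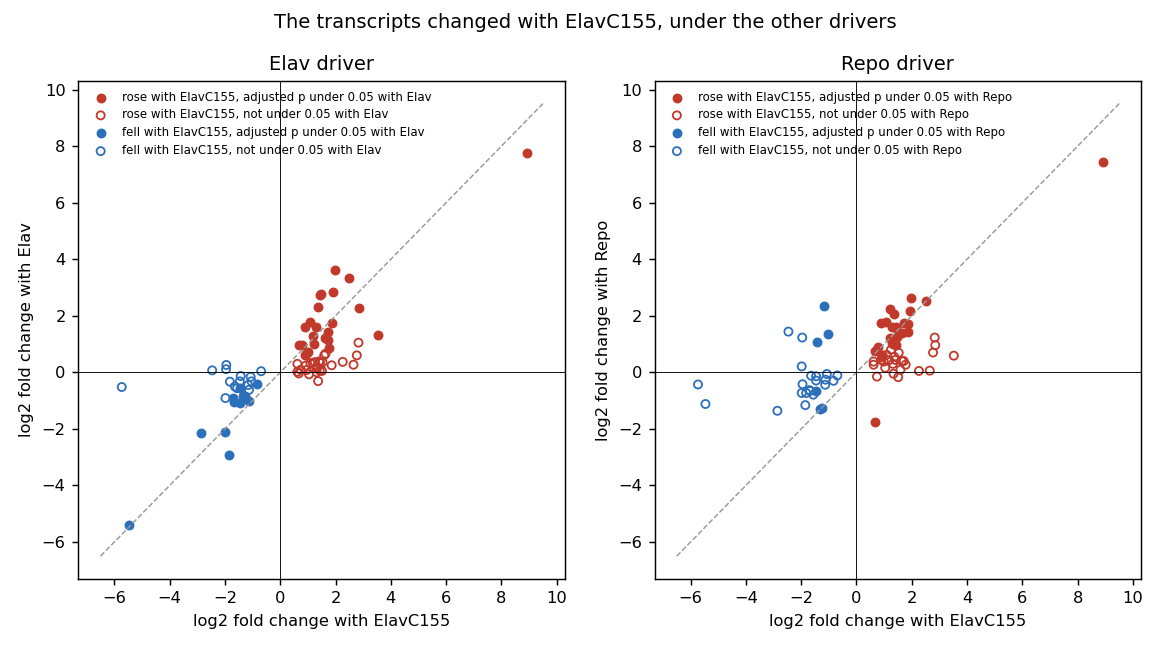
Log2 fold changes of the 78 transcripts changed with ElavC155 (x axes), set against their log2 fold changes with the Elav driver (left, y axis) and the Repo driver (right, y axis). Filled dots had an adjusted p under 0.05 with the other driver, and the dashed line marks equal effects. Of the 51 rises 24 also rose with Elav and 23 with Repo, while of the 27 falls 12 also fell with Elav and 3 with Repo.

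Missing the threshold under another driver does not show a different effect, so the differences were tested as interaction contrasts across all transcripts. The ElavC155 and Elav effects differed for 15 transcripts (0.0969% of those tested), with sizes of the difference from 1.13 to 5.20. Of these 15, 6 were among the 78, namely 4 rises and 2 falls, and FBtr0072463 and FBtr0082093 were 2 of the 6. The other 9 had changed only with the Elav driver. The ElavC155 effect was more positive for 5 of the 15 and more negative for 10. Without ElavC155-ATMi replicate 1 or 2 or ElavC155-GAL4 replicate 2, 7, 9 or 6 transcripts differed. The split by direction rested on single arrays, since leaving out ElavC155-ATMi replicate 2 gave 0 positive and 9 negative differences, and leaving out ElavC155-GAL4 replicate 1 gave 7 of each.

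The ElavC155 and Repo effects differed for 147 transcripts (0.950%), and 12 of these were among the 78. Those 12 comprised 2 rises and 10 falls, and included FBtr0072463, FBtr0082093 and FBtr0072462. Of the others, 120 had changed only with Repo and 15 had passed with neither driver. Because the 78 were picked by their ElavC155 effect, which is also part of both differences, these counts among them are a description. Without ElavC155-ATMi replicate 1 or 2 or ElavC155-GAL4 replicate 2, 82, 94 or 80 transcripts differed. The Repo arrays belong to the set with the lower medians, so driver and array set are confounded in this contrast and cannot be told apart.

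The levels of the 78 in the Elav-GAL4 heads put the changes in context, though the driver-only lines were not tested against each other. For 40 of the 51 rises the ElavC155-ATMi mean was farther from the Elav-GAL4 mean than the ElavC155-GAL4 mean was, and for 11 it was nearer. For 18 of the 27 falls ElavC155-ATMi heads were farther from Elav-GAL4 heads, and for 9 they were nearer. Over all transcripts ElavC155-ATMi heads were nearer for 51.4%. ElavC155-ATMi means lay above the Elav-GAL4 mean for 46 of the 51 rises, and ElavC155-GAL4 means did so for 26. The 78 were picked by the difference between the ElavC155-ATMi and ElavC155-GAL4 means, and both means enter these counts. The counts are thus a description, and the share over all transcripts, which were not so picked, is no measure for them. For FBtr0072463, ElavC155-GAL4 heads (7.61) and Elav-GAL4 heads (7.71) had close means, whereas for FBtr0082093 ElavC155-GAL4 heads (10.68) were below Elav-GAL4 heads (13.01).

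Of the 17 transcripts tied to 1 gene, 0 changed, beside 0.504% of all transcripts. An unadjusted p under 0.05 in limma was found for 1 of them, beside 6.32% of all transcripts. That one was Wdr24, a subunit of the GATOR2 complex that promotes activity of the growth kinase TORC1. Its level was 12.59 and 12.38 in ElavC155-ATMi heads and 12.81 and 12.79 in ElavC155-GAL4 heads, a log2 fold change of -0.31 ± 0.12 (SE, n = 2 each, limma adjusted p = 0.59). The groups did not overlap, but the difference did not pass after adjustment. The log2 fold change of Wdr24 was positive with the other drivers and passed with neither. It was 0.18 with Elav (limma adjusted p = 0.58) and 0.27 with Repo (limma adjusted p = 0.28). Another GATOR2 gene, mio, was at 11.65 and 11.33 in ElavC155-ATMi heads and 11.31 and 11.46 in ElavC155-GAL4 heads, with overlapping groups.

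Among the 17, the transcripts of the chromatin genes HDAC3, kis, SuUR and His4r did not pass the test. With 0.504% of all transcripts changed, so few rows say nothing of chromatin genes as a class. HDAC3, a histone deacetylase, was at 11.61 and 11.59 in ElavC155-ATMi heads and 11.63 and 11.86 in ElavC155-GAL4 heads, a log2 fold change of -0.15 (95% interval -0.55 to 0.26). The value for kis, a CHD-family chromatin remodeller, was 0.19 (-0.17 to 0.54). For SuUR, a chromatin protein that slows replication of heterochromatin in polytene cells, it was 0.04 (-0.28 to 0.37). His4r, a histone H4 gene outside the replication-dependent cluster, had levels of 10.36 and 10.32 in ElavC155-ATMi heads and 10.72 and 10.54 in ElavC155-GAL4 heads. Its log2 fold change was -0.29 (-0.85 to 0.28), and the interval takes in both no difference and a fall of over 1.5-fold.

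The matched transcripts of cytoskeleton, matrix, metabolism and protein turnover genes gave values of the same order. The log2 fold change was -0.08 (95% interval -0.37 to 0.21) for alpha-Spec, the alpha chain of the membrane skeleton protein spectrin, and 0.20 (-0.24 to 0.65) for LanA, a laminin alpha chain of basement membranes. Fatp1, a fatty acid transport protein, was at 13.48 and 13.37 in ElavC155-ATMi heads and 13.56 and 13.85 in ElavC155-GAL4 heads, a log2 fold change of -0.28 (-0.73 to 0.16). Uba1, the enzyme that activates ubiquitin, had -0.17 (-0.55 to 0.21), and rdx, an adaptor of a Cullin-3 ubiquitin ligase, had 0.04 (-0.34 to 0.42). None of these intervals excluded 0.

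CG31178 had the largest measured difference and the widest interval of the 17. It was dim, at 5.54 and 5.20 in ElavC155-ATMi heads and 5.83 and 5.71 in ElavC155-GAL4 heads, with a log2 fold change of -0.40 (95% interval -1.13 to 0.33). The remaining genes were fend, CG16974, NaPi-III, sle and Dyrk3, with log2 fold changes from -0.11 (NaPi-III) to 0.16 (CG16974). In all, 10 of the 17 log2 fold changes were negative and 7 positive, with a median of -0.05. For 16 of the 17 genes the 95% interval lay within a 2-fold change either way, and for 13 within 1.5-fold. The groups did not overlap for 8 of the 17, beside 40.0% of all transcripts. The 27 rows tied to several genes included 0 that changed, beside 0.504% of all transcripts. In limma 1 of the 27 had an unadjusted p under 0.05, beside 6.32% of all transcripts. The lowest limma adjusted p among the 27 was 0.086, and their log2 fold changes ran from -0.65 to 0.26.

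**Figure D4:**
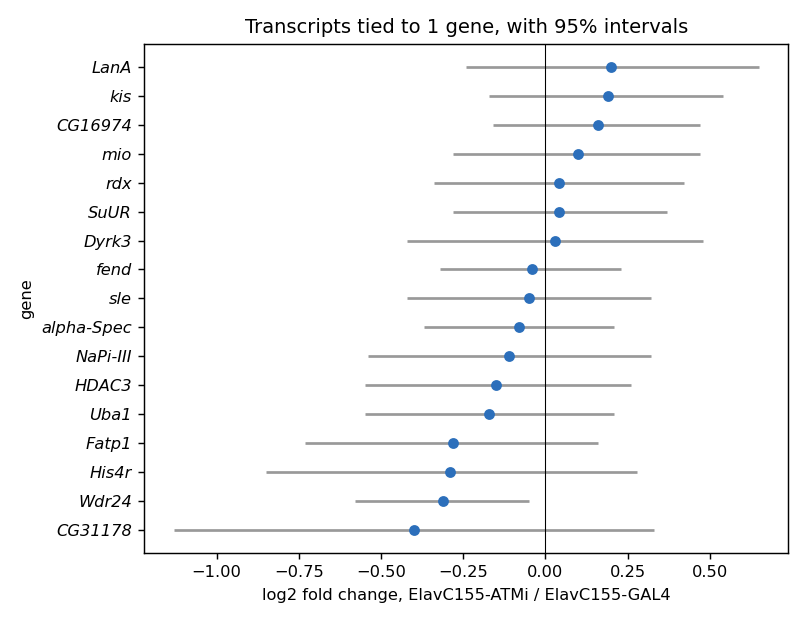
Log2 fold change of ElavC155-ATMi over ElavC155-GAL4 (x axis) for the 17 transcripts that could be tied to 1 gene (y axis), with 95% intervals from limma. Only the interval of Wdr24 excludes 0, and only that of CG31178 reaches beyond a halving.

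The number of changed transcripts depended on the fit. With the 4 ElavC155 arrays alone 6 passed, and without ElavC155-ATMi replicate 1, ElavC155-ATMi replicate 2 or ElavC155-GAL4 replicate 2 the count was 44, 32 or 36. The 32 without ElavC155-ATMi replicate 2 were 11 rises and 21 falls, so the excess of rises was lost. All 78 kept their direction in each of these fits, but groups that do not overlap fix this in advance, so it is no sign of stability. In each of the 4 fits without 1 ElavC155 array, 18 of the 78 passed, 10 of them rises and 8 falls, and all 4 transcripts named by number above were among the 18. Of these 18, 13 had changed the same way with Elav and 9 with Repo. Their median size was 1.80, against 1.35 for the rest of the 78, but passing in every such fit itself favours large sizes. Among all 78, 24 rises and 12 falls changed the same way with Elav, and 23 rises and 3 falls with Repo. FBtr0070073, FBtr0082093 and FBtr0072462 also passed with the 4 ElavC155 arrays alone, and FBtr0072463 did not (adjusted p = 0.052).

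**Figure D5:**
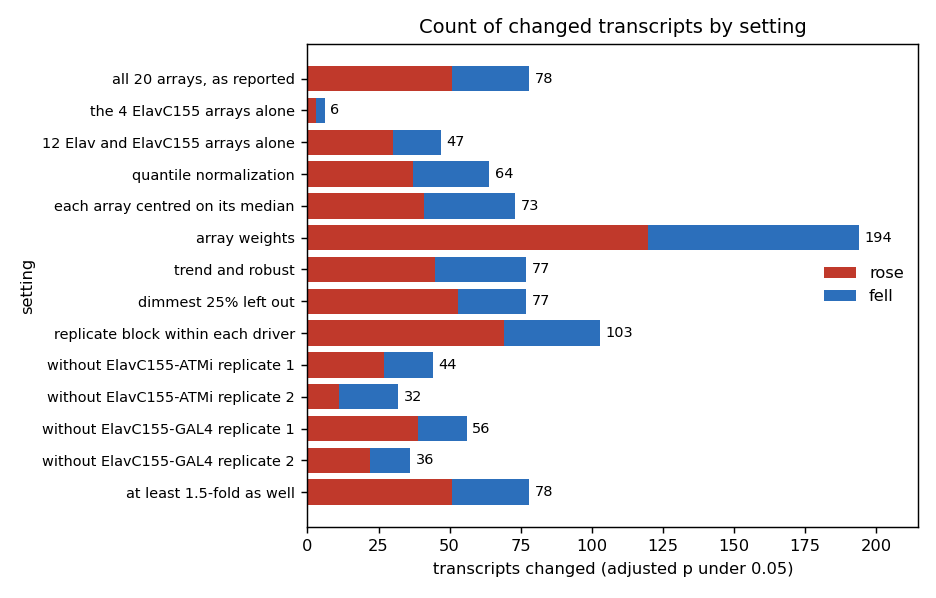
Number of transcripts changed between ElavC155-ATMi and ElavC155-GAL4 heads (x axis) under each setting (y axis), split into rises (red) and falls (blue). The count is 78 as reported, 6 with the 4 ElavC155 arrays alone and 194 with array weights.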

How the data were processed

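Head RNA was labelled with Cy3 by NimbleGen, per the labels' protocols, for 1 single-colour array per sample. The authors deposited levels whose range fits a log2 scale. They were made by RMA (version unstated), per the submitters' processing notes. The sources used here do not give the background step, the probes per transcript or whether all 20 arrays were normalized together.

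A mean per genotype was fitted to all 20 arrays by lmFit and moderated by eBayes (R 4.3.3, package limma 3.58.1; two-sided, 12 residual and 3.79 prior degrees of freedom), and interaction contrasts were taken from the same fit. P-values were adjusted over 15473 transcripts by the Benjamini-Hochberg method. The procedure was tested on simulated data. Replicates are called biological in the labels without further detail. Whether they came from separate crosses or collections is not stated, so what the spread behind each p-value covers is not known. The number of arrays limits the precision.

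The 10 largest rises and falls with groups that do not overlap were to be named. Since identifiers without a gene say little, 2 of each are printed by number. Gene names come from a RefSeq table (Release 6), matched on FlyBase transcript numbers, with none of its coordinates used. Of the 231 entries in 19 gene lists, 0 could be matched. The comparison, lists and tests were chosen with earlier results of these data known. Alternatives were other sets of arrays, quantile normalization, median centring, array weights, trended and robust variances, a filter on dim transcripts, a replicate block, leaving out each ElavC155 array, and a 1.5-fold threshold.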

Additional observations from a re-analysis of the deposited data

Results flagged for a closer look

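The ElavC155 and Elav effects, both of neuronal knockdown, differed by the interaction test in limma for 15 transcripts, and the ElavC155 and Repo effects for 147. FBtr0072463 rose more with ElavC155 than with Elav, by 2.22, and more than with Repo, by 2.93, on the log2 scale. FBtr0082093 had a difference of -5.20 from Elav and -5.30 from Repo. FBtr0072462 had a difference of -4.35 from Repo. What underlies these differences was not tested, and the Repo arrays belong to another set of values.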

How the results depend on the processing

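With the compared arrays alone, 6 transcripts changed with ElavC155, 8 differed between ElavC155 and Elav, and ElavC155 and Elav shared 3 rises and 2 falls. A fit of 4 arrays has few residual degrees of freedom, and all 78 transcripts had an unadjusted p under 0.05 in it, as did 1356 in all. With the 12 ElavC155 and Elav arrays, 47 changed, 8 differed (1 more positive and 7 more negative with ElavC155) and 14 rises were shared. Array weights gave 194 changed (all 78 among them), 23 and 351 that differed from Elav and Repo, and 25 shared falls. Quantile normalization gave 64 changed and 7 that differed from Elav. Leaving out each ElavC155 replicate in turn gave 32 to 56 changed, 6 to 14 that differed from Elav, 80 to 166 from Repo, 8 to 18 shared rises and 7 to 8 shared falls. Differences from Elav numbered 7 and 9 without ElavC155-ATMi replicate 1 or 2 and 6 without ElavC155-GAL4 replicate 2. Those from Repo numbered 82, 94 and 80 in these 3 fits. Shared rises numbered 14, 8 and 11 in them, and shared falls 7, 7 and 8. Without ElavC155-GAL4 replicate 1, 7 falls were shared. The rises shared with Repo, 23 as reported, were 7 to 13 in the 4 fits. Apart from what is said here of array sets and fewer samples, the causes were not tested.

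The replicate number as a block gave 103 changed transcripts, with 63 of the 78 and 40 others among them, and 31 that differed between ElavC155 and Elav. Same-numbered ElavC155 arrays deviated together (r = 0.509 across transcripts), but with 2 pairs and no label for a shared day or litter the numbers were not taken to pair the samples. The rises and falls kept their sign in every fit that held them. Only quantile normalization and median centring altered the levels compared. In the other fits the same levels, in groups that do not overlap, fixed the sign in advance. After quantile normalization 62 of the 78 passed, and with median centring 68 did. With the dimmest 25% left out, 64 of the 78 were still tested and all 64 passed. This filter leaves their levels as they were and adjusts over fewer transcripts, so passing again says little. Of the 17 named genes, 0 passed under any setting. Signal near background cannot be told from none here, because the deposited levels have no detection flag.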

Other observations

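FBtr0072462 and FBtr0072463 carry consecutive FlyBase numbers and moved in opposite directions in ElavC155-ATMi heads, at -5.46 and 3.52 on the log2 scale. With the Elav driver the pair had -5.40 and 1.31, both past limma's test. With the Repo driver it had -1.12 and 0.59, and in ATM8 homozygotes -4.22 and -0.28. Of the 78 changed transcripts, 10 (12.8%) lay in 5 pairs with consecutive numbers, and 2 of the 5 pairs, this one included, moved in opposite directions. The whole table holds 12668 such pairs, and 131 of them include a changed transcript. The files do not say whether 2 consecutive numbers belong to 1 gene or to neighbours, and no explanation was tested.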
